A study of Mus musculus with 63 samples.

Results

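The 82 genes described here carry the symbols of cytosolic ribosomal proteins, measured in mouse pluripotent cells and after their differentiation. They were taken by symbol: every row named Rpl or Rps followed by digits with at most a final a, x or l, together with Rplp0, Rplp1, Rplp2 and Rpsa, and without symbols marked as pseudogenes by the ending -ps. Rps4l, which RefSeq calls a transcribed pseudogene, carries no such ending and is among them. That gave 82 of 47517 gene symbols, 50 for the large subunit and 32 for the small subunit. The rule uses no measured value, but it was set with earlier results of these data known. Among the genes the rule leaves out are Rps3a1, Fau and Rack1, which also encode ribosomal proteins under other kinds of symbol. Transcript levels came from 22 RNA-seq libraries of C57BL/6 mouse cells in 10 groups, given here as CPM, a gene's counts scaled to the library's summed gene counts, which suits comparison between libraries but not between genes of different length.

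The study asked what the transcription factor YY1 does in extended pluripotent stem (EPS) cells, a state kept in LCDM medium that can contribute to embryonic and extraembryonic tissue, set against embryonic stem (ES) cells, for which the medium was 2i. ES and EPS cells with no construct in their labels gave 3 libraries each. A further 4 groups of 2 libraries each carried a construct: EPS cells with a control hairpin (EPS shCtrl) or a hairpin against Yy1 (EPS shYy1), and ES cells with a control (ES oeCtrl) or a Yy1 overexpression construct (ES oeYy1). The same 4 constructs were sampled again, with 2 libraries each, after 6 days in a medium called F4H. Both media for pluripotent cells were free of serum, and the cells grew either on mitotically inactivated embryonic fibroblasts, so-called feeders, or on Matrigel, without a statement of which library came from which. Replicates are not said to be separate cultures, so p-values measure the spread between libraries, which may be technical. The promoters that drive the constructs, and whether a line was 1 clone, are not given in the sources used here. In the labels of the day 6 controls the title names shCtrl or oeCtrl and the characteristics say control only, so the titles were followed.

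A ribosome joins a large subunit, which forms peptide bonds, to a small subunit, which reads the mRNA. Most of its proteins are present in 1 copy per ribosome. Many of these mRNAs begin with a C followed by an unbroken run of C and T, the terminal oligopyrimidine (TOP) tract, through which mTOR signalling and LARP1 set their translation and stability. Most of the proteins have a single active gene. A few have a paralog used in particular tissues, such as Rpl10l and Rpl39l in the male germ line and Rpl3l in muscle, and in mouse Rpl10, Rpl36a, Rpl39 and Rps4x lie on the X chromosome.

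Libraries held 13672061 to 20782348 gene counts. Replicate 3 of ES and of EPS stood apart from the other libraries of its group, and the EPS shCtrl replicates differed more from each other than those of the other groups of 2. The level of Yy1 checked the labels: it fell from 134.0 to 70.5 CPM with the hairpin in undifferentiated EPS cells (log2 -0.99, edgeR adjusted p = 4.4e-06), and the overexpression construct raised it from 121.9 to 937.3 CPM in ES cells (log2 2.94) and from 122.8 to 328.0 CPM on day 6 (log2 1.38). On day 6 the libraries labelled shYy1 had 111.7 CPM against 125.6 CPM in their controls (log2 -0.03, edgeR adjusted p = 0.566), so the hairpin was not seen to lower Yy1 there, and every direction below for that comparison is of libraries labelled shYy1. Summed over 8 pluripotency markers, levels were 3887 to 6598 CPM in undifferentiated libraries and 182 to 453 CPM on day 6.

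Sequences around the transcription start were compared with those of other genes. RefSeq promoter windows (GRCm38.p6, 250 bases before to 50 bases after the start) were found for 60 of the 82 genes. Shown first are 5 genes whose start lies in or beside a pyrimidine run, as 60 bases from 40 before the start to 20 from the start on, 5′ to 3′ on the gene's strand. Capitals mark the longest run of C and T that touches the 10 bases on either side of the start. They cover Rps6 (chr4:86857348-86857407, minus strand), Rps18 (chr17:33955646-33955705, minus strand), Rps27 (chr3:90213629-90213688, minus strand), Rpl28 (chr7:4792925-4792984, plus strand) and Rpl38 (chr11:114668540-114668599, plus strand), which recur in the comparisons.
Rps6: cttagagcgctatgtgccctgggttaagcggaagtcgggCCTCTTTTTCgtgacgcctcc
Rps18: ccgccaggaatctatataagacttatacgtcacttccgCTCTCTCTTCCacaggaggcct
Rps27: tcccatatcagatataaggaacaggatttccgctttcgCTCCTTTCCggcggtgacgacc
Rpl28: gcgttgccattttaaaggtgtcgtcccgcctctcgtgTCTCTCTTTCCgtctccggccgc
Rpl38: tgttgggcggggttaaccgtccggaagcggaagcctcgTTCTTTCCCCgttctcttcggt

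The 4 X-linked genes are shown because they moved apart from the autosomal ones with the Yy1 hairpin. Their windows are chrX:74270776-74270835 (Rpl10, plus strand), chrX:134585614-134585673 (Rpl36a, plus strand), chrX:37085203-37085262 (Rpl39, minus strand) and chrX:102189372-102189431 (Rps4x, minus strand), with the same use of capitals.
Rpl10: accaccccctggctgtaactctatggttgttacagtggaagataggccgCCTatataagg
Rpl36a: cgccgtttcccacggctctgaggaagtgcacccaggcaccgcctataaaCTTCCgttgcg
Rpl39: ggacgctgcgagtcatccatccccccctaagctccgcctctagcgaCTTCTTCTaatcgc
Rps4x: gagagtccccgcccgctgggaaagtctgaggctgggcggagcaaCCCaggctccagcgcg

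A run of at least 8 pyrimidines touching those 10 bases was present in 28 of the 60 genes (46.7%), against 15.7% of 18750 genes with a window. CCATNTT, the core letters of the YY1 motif on either strand of the 300-base window, was present in 19 of 60 (31.7%) against 17.3%. The ETS-type CCGGAAG was present in 41.7% against 12.2%, the GC box GGGCGGG in 43.3% against 35.1%, the E-box CACGTG in 10.0% against 8.82% and TATAAA in 10.0% against 14.3%, each on either strand and with overlaps between motifs allowed. Median GC content was 57.0% against 55.7%. These are letter matches and not binding sites. The stretch of Rpl28 printed above holds a match to CCATNTT within 40 bases of the start, in lower case there. For CCATNTT, 2 further examples within 40 bases are given here in capitals. They are in the testis-type paralog Rpl10l (chr12:66284382-66284441, minus strand) and the small subunit gene Rps15a (chr7:118116128-118116187, minus strand).
Rpl10l: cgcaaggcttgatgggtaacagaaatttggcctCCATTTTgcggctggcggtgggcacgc
Rps15a: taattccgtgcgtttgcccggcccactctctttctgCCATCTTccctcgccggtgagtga

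All 82 rows had counts, from a mean under 5 CPM for Rpl24, Rpl39l and Rpl3l to over 1000 CPM for 19 genes. Their summed share of all gene counts sorted the libraries into 3 levels, visible in the plot of shares by library. ES libraries gave 9.21%, 9.89% and 7.15%, and EPS libraries 9.85%, 9.78% and 7.92%. The lowest value in both was replicate 3. The 8 undifferentiated libraries with a construct gave 4.24 to 4.99%, below each library without one. On day 6 the EPS shCtrl libraries gave 6.71% and 6.93%, and the other 6 libraries 4.78 to 5.29%. The ratio of large to small subunit counts moved less, from 1.29 to 1.38 without a construct, 1.36 to 1.44 with one and 1.36 to 1.43 on day 6. In bulk RNA, fewer cells of a type and less RNA per cell cannot be told apart.

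**Figure D1:**
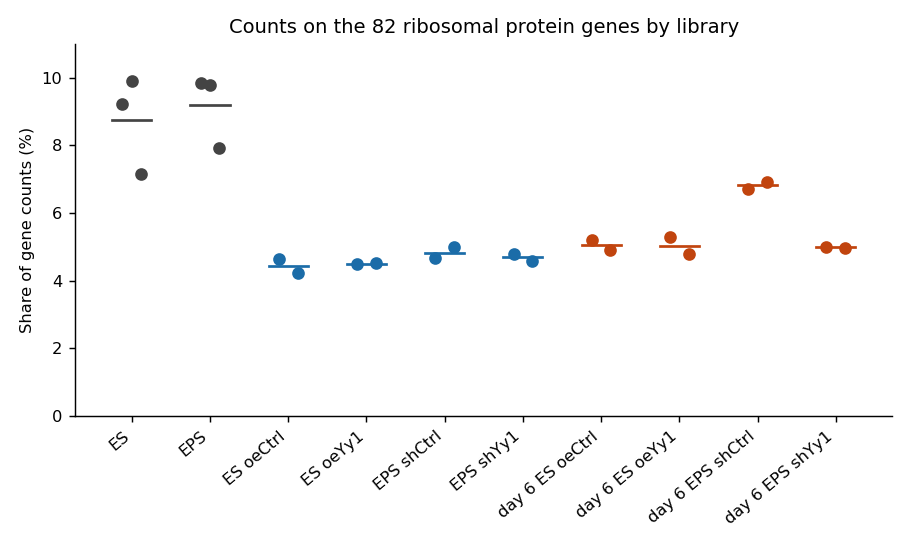
Share of gene counts (%) on the 82 genes, 1 point per library, with the group mean as a horizontal line, for 10 groups. Libraries without a construct label lie between 7.15% and 9.89%, undifferentiated construct libraries between 4.24% and 4.99%, and day 6 EPS shCtrl at 6.71% and 6.93%.

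Ribosomal protein mRNAs were lower in cells carrying a control construct than in cells with none in their labels. In EPS cells (EPS shCtrl against EPS) 77 of 82 genes were called lower and 3 higher, where called means an adjusted p under 0.05 over all genes tested in edgeR's quasi-likelihood test. Over all genes tested, 29.7% were called lower and 28.0% higher. In ES cells (ES oeCtrl against ES) 76 of 82 were lower and 2 higher, against 26.4% lower and 25.6% higher over all genes tested. The median over the 82 genes was a log2 change of -1.30 and -1.42, with all-gene medians of -0.02 in both, and 74 genes were lower in both. In 69 of the 82 genes all 8 undifferentiated libraries with a construct lay below all 6 libraries without one, none lay above, and 13 overlapped. The counts of 74 and 69 were not taken over all genes, so how far they exceed an all-gene share is not known. The EPS and ES comparisons share no library, and the changes of the 82 genes in one correlated with those in the other (Pearson r = 0.704 across genes, which are not independent). They were added after the libraries had been compared by share.

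Size of the fall differed among the genes. Rps29, a zinc-binding protein of the small subunit head, had 459.6, 491 and 267 CPM in ES cells and 37.1 and 32.4 CPM in ES oeCtrl. In EPS cells it had 421, 271 and 287 CPM and in EPS shCtrl 37.3 and 42.8 CPM. No library of one kind overlapped with the other, and the log2 changes were -3.62 ± 0.28 (SE) in ES and -3.20 ± 0.27 in EPS cells (edgeR adjusted p = 3.4e-08 and 6.9e-08). Next came Rps21 (-3.33 and -2.58), Rps27 (-2.89 and -2.79), Rps28 (-2.83 and -2.45) and Rpl39 (-2.68 and -2.44), all among the shortest proteins of the ribosome. Some genes fell less. Rplp0, the base of the P-stalk, changed by -0.73 and -0.49, Rpl4 by -0.30 and -0.72, and Rpl3, which lies near the peptidyl transferase centre, by -0.74 and -0.71, each called. Rpsa, the laminin-receptor homologue of the small subunit, changed by -0.64 in EPS cells (called) and by -0.12 in ES cells (not called). Large and small subunit genes had medians of -1.25 and -1.34 in EPS cells. Rpl10l went the other way, from 5.27, 4.81 and 5.40 CPM in EPS to 35.4 and 28.9 CPM in EPS shCtrl (log2 2.46 ± 0.17, edgeR adjusted p = 1.3e-10), and by log2 0.58 in ES cells. Rps4l also rose in ES cells (0.43), a call lost without ES replicate 3 or either ES oeCtrl library (edgeR adjusted p up to 0.108).

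**Figure D2:**
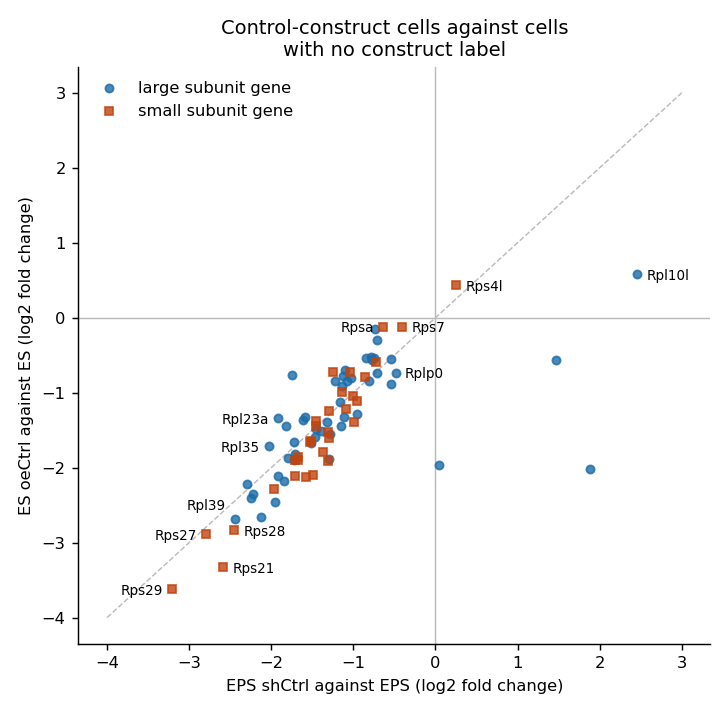
Log2 fold change of the 82 genes (edgeR) in EPS shCtrl against EPS (horizontal) and ES oeCtrl against ES (vertical), with circles for large and squares for small subunit genes and a dashed line of equality. Most genes lie low in both, down to Rps29 at -3.20 and -3.62, and Rpl10l lies at 2.46 and 0.58.

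Feeder markers moved with this contrast. Of 18 fibroblast genes 17 were tested, and 16 were lower and 1 higher in ES oeCtrl than in ES, with 14 lower and 1 higher in EPS shCtrl than in EPS. Their summed level was 4494 to 7667 CPM in ES, 2046 to 3412 CPM in EPS and 1726 to 2793 CPM in the undifferentiated construct groups. The collagen gene Col1a1 averaged 906.7 CPM in ES, 100.4 CPM in EPS, 1.20 CPM in ES oeCtrl and 0.643 CPM in EPS shCtrl. S100a4 was at 0 in every library of the 6 undifferentiated groups, and Lum also in EPS shCtrl. Their part in the lower ribosomal protein counts was not tested. A difference in handling or library preparation between libraries with and without a construct cannot be told apart from the construct itself.

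How many of the 82 genes were called between EPS and ES cells depended on whether replicates were paired. Without pairing 1 of 82 genes was called higher and 4 lower in EPS than in ES, against 13.8% higher and 16.9% lower over all genes tested, with a median log2 change of 0.12 over the 82 genes and 0.00 over all. Same-numbered ES and EPS libraries deviated together, and with the replicate number as a block 20 genes were higher and 5 lower. The all-gene share in the block fit was not taken. Rpl6, a large subunit protein, had 1826, 1785 and 1547 CPM in ES and 2224, 2375 and 1925 CPM in EPS. Its EPS libraries all lay above the ES ones (log2 0.41 ± 0.12, edgeR adjusted p = 0.014). The 4 lower genes were paralogs: Rpl10l (log2 -2.21, edgeR adjusted p = 3.0e-08), Rps4l (-0.43), Rpl39l and Rpl3l. The X-linked genes gave log2 0.26 for Rpl10, 0.24 for Rpl36a, 0.20 for Rps4x and -0.14 for Rpl39, none called. Leaving out EPS replicate 3 gave 20 higher and 3 lower, also without an all-gene share, and without ES replicate 3 the median over the genes was -0.039. The call of Rpl6 was lost without ES replicate 3, EPS replicate 1 or EPS replicate 2 (edgeR adjusted p up to 0.0791), and that of Rps4l without ES replicate 1, ES replicate 2 or EPS replicate 3 (up to 0.190). Of 17 tested fibroblast genes 12 were lower and 0 higher in EPS than in ES (median log2 -1.31), and their part in these values was not tested.

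Control cells of the 2 origins were compared next. In EPS shCtrl against ES oeCtrl 16 of 82 genes were higher and 3 lower, against 19.7% and 20.7% over all genes tested, so that the share higher was that of all genes. The median log2 change was 0.21. Rps12, near the beak of the small subunit, had 766 and 846 CPM in EPS shCtrl and 481 and 443 CPM in ES oeCtrl (log2 0.79 ± 0.18, edgeR adjusted p = 0.0026). Rpl34, which had 229.9 and 253 CPM against 152 and 133 CPM, rose by 0.75, and Rps21, Rps16 and the P-stalk protein Rplp1 by 0.82, 0.72 and 0.62. Rpl10 was also higher (0.60), with 854 and 944 CPM against 609 and 561 CPM. Among the lower genes were Rpl23a (-0.60) and Rps4l (-0.59). With any 1 of the 4 libraries left out, 4 to 11 genes were called: 11 without EPS shCtrl replicate 1, 7 without EPS shCtrl replicate 2, and 4 without either ES oeCtrl library. Rps12 and Rpl34 were called in each case, Rps21 and Rpl23a in none (edgeR adjusted p up to 0.188 and 0.216). The calls of Rps16 and Rplp1 were lost without EPS shCtrl replicate 2 or either ES oeCtrl library (up to 0.118 and 0.194), and that of Rps4l without EPS shCtrl replicate 1 or either ES oeCtrl library (up to 0.115). Summed fibroblast genes were at 1814 to 1928 CPM in EPS shCtrl and 2356 to 2793 CPM in ES oeCtrl (6 higher and 1 lower of 17 tested), and summed primitive endoderm genes at 468 to 517 CPM and 863 to 887 CPM (8 higher and 2 lower of 11 tested). In both lists the sum was lower in EPS shCtrl, while more genes were called higher there than lower. The part of these genes was not tested.

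With the Yy1 hairpin in undifferentiated EPS cells the X-linked and the autosomal genes parted, as the plot of 7 comparisons shows. Of 82 genes 6 were higher and 2 lower in EPS shYy1 than in EPS shCtrl, against 15.1% and 13.3% over all genes tested. The 4 X-linked genes were all among the 6. By contrast 72 of 78 autosomal genes had a log2 change below 0, with a median of -0.18. The share below 0 among all autosomal genes was not taken. Only Rps27 and Rpl3l were called lower, a smaller share than the 13.3% over all genes tested. Autosomal genes as a whole had a median of -0.03 over 14359 tested. On the X chromosome 338 of 578 tested genes were higher and 13 lower, with a median of 0.83, the same direction as the X-linked ribosomal protein genes (median 0.56). Fibroblast genes (5 higher and 1 lower of 17 tested) and primitive endoderm genes (1 higher and 8 lower of 11 tested) differed between these groups too. Summed primitive endoderm genes went the other way from their calls, at 468 to 517 CPM in EPS shCtrl and 586 to 588 CPM in EPS shYy1. Summed fibroblast genes were at 1814 to 1928 CPM and 2304 to 2434 CPM. The part of both lists was not tested.

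**Figure D3:**
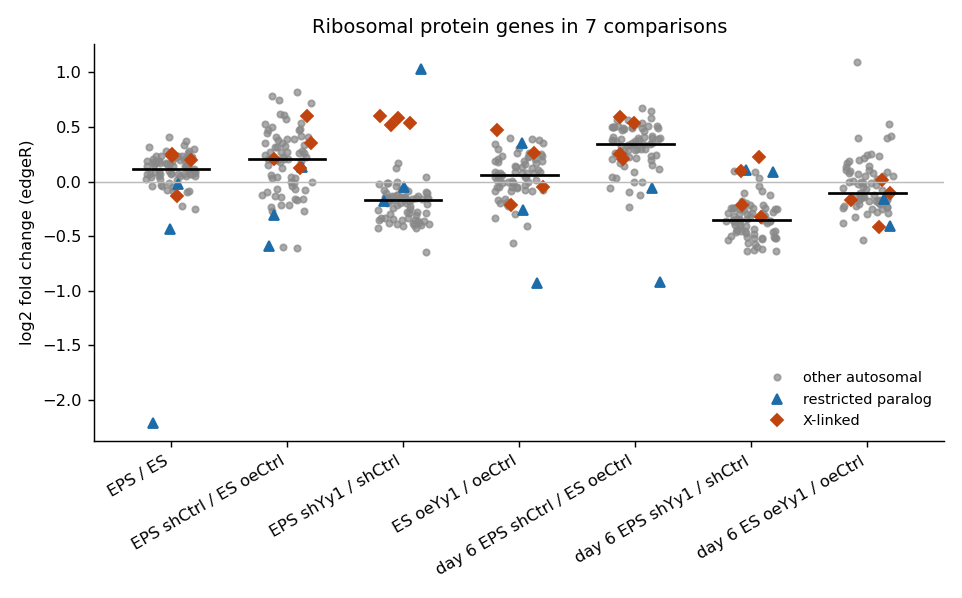
Log2 fold change (edgeR) of each gene with at least 5 CPM in 1 of the groups compared, in 7 comparisons. Diamonds mark X-linked genes and a black line the median over all genes tested of the 82. Triangles, labelled restricted paralog, mark those of Rpl3l, Rpl10l, Rpl39l, Rps27l and Rps4l that reach this level. In EPS shYy1 against shCtrl the 4 diamonds lie between 0.52 and 0.60 and the median at -0.17, and on day 6 the median is -0.35.

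Rpl10, which joins the large subunit last and is needed for it to enter translation, had 854 and 944 CPM in EPS shCtrl and 1442 and 1378 CPM in EPS shYy1. Its groups did not overlap (log2 0.58 ± 0.13, edgeR adjusted p = 0.0035). Rps4x, a small subunit protein that has a Y-linked counterpart in humans, rose from 960.4 and 1035 CPM to 1635 and 1527 CPM (log2 0.60 ± 0.17, edgeR adjusted p = 0.016). Rpl36a went from 199 and 216 CPM to 332 and 289.5 CPM (log2 0.52) and Rpl39, at the exit of the peptide tunnel, from 66.8 and 69.4 CPM to 105 and 102 CPM (log2 0.53). Neither gene's groups overlapped. Rpl10l had 35.4 and 28.9 CPM against 67.3 and 69.5 CPM, a rise of 1.03. The fall of Rps27, from 91.3 and 104 CPM to 71.1 and 59.9 CPM, was -0.65 on the log2 scale. Leaving out either EPS shCtrl library left 4 of the 82 genes called and leaving out either EPS shYy1 library left 3. The calls of Rpl36a and Rpl39 were lost in all 4 cases (edgeR adjusted p up to 0.201 and 0.167), that of Rps4x in 3, all but EPS shCtrl replicate 2 (up to 0.0971), that of Rps27 without replicate 2 of either group (up to 0.165), and those of Rpl10 and Rpl10l in none. The call of Rpl3l was lost without replicate 1 of either group (edgeR adjusted p up to 0.178).

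**Figure D4:**
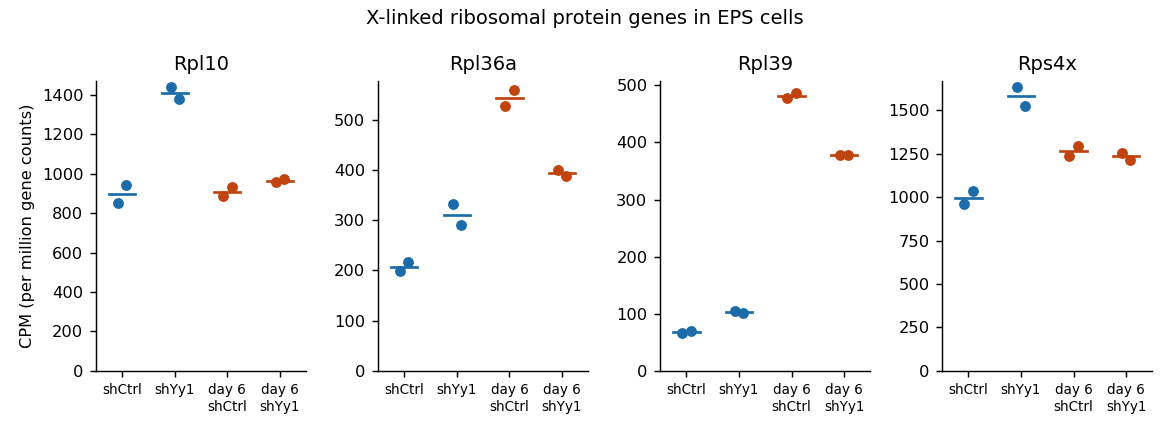
CPM of the 4 X-linked genes in EPS shCtrl and shYy1 libraries, undifferentiated and on day 6, 1 point per library with the group mean as a horizontal line. Undifferentiated shYy1 libraries lie above shCtrl for all 4, while on day 6 Rpl36a and Rpl39 lie below.

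Overexpression of Yy1 in undifferentiated ES cells left few calls. In ES oeYy1 against ES oeCtrl 2 of 82 genes were higher and 2 lower, against 14.8% and 17.1% over all genes tested, with a median log2 change of 0.06. Rpl28, whose promoter is printed above, had 477 and 400.0 CPM in the controls and 307 and 289 CPM with the construct. Its libraries did not overlap (log2 -0.56 ± 0.18, edgeR adjusted p = 0.028). Rpl10l fell from 39.96 and 38.1 CPM to 20.5 and 20.6 CPM (log2 -0.93, edgeR adjusted p = 5.7e-04), opposite in direction to its change with the hairpin. Rpl36a rose from 188 and 168 CPM to 249.9 and 245 CPM (log2 0.47), and Rpl39l by log2 2.15 at 3.73 and 5.00 CPM. A fit on these 4 libraries alone called 27 of the 82 genes higher and 11 lower, but the all-gene share in that fit was not taken. Leaving out ES oeCtrl replicate 2 left 3 genes called and leaving out any other of the 4 libraries left 2. The call of Rpl36a was lost in each case (edgeR adjusted p up to 0.209), and that of Rpl28 in all but the one without ES oeCtrl replicate 2 (up to 0.187).

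On day 6 the libraries labelled shYy1, whose Yy1 level was not lower, had less ribosomal protein mRNA than their controls. Of 80 genes tested 63 were lower and 1 higher, against 30.4% lower and 30.9% higher over all genes tested, and the median log2 change was -0.35 (all genes -0.01). Both subunits shared in it, with 39 of 48 large and 24 of 32 small subunit genes lower. Rps18, a small subunit head protein, had 869 and 922 CPM in EPS shCtrl and 523 and 527 CPM in the libraries labelled shYy1 (log2 -0.64 ± 0.06, edgeR adjusted p = 1.9e-08). Rpl28 went from 876 and 917 CPM to 523 and 531 CPM (log2 -0.63 ± 0.05, edgeR adjusted p = 5.3e-18). Rpl22, which also binds RNA outside the ribosome, had 515 and 527 CPM against 313 and 305 CPM (log2 -0.62), and Rps14 and Rpl3 gave -0.63 and -0.60. In all 5 genes both control libraries lay above both others. Rpl10 was the gene called higher, at 886 and 933 CPM against 959 and 973 CPM (log2 0.22). Its call ended without scaling factors and when either library labelled shYy1 or EPS shCtrl replicate 1 was left out (edgeR adjusted p up to 0.0844). Of the other X-linked genes Rps4x gave 0.10 and was not called, while Rpl36a (-0.33) and Rpl39 (-0.22) were lower. On the X chromosome 267 of 548 tested genes were higher and 101 lower, with a median of 0.27.

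The control cells of EPS origin also stood above those of ES origin on day 6. In EPS shCtrl against ES oeCtrl 64 of 80 genes were higher and 4 lower, against 31.6% and 32.4% over all genes tested, with a median log2 change of 0.35. This comparison shares the EPS shCtrl libraries with the preceding one, so the values stand side by side and are not independent. Rpl28, at 876 and 917 CPM against 547 and 485 CPM, gave log2 0.65 ± 0.05 (edgeR adjusted p = 1.9e-18). Rpl36, Rpl36a, Rps14 and Rps28 gave 0.67, 0.59, 0.58 and 0.56. Rps4l (-0.92) and Rplp0 (-0.24) were lower, the latter with 1469 and 1510.2 CPM against 1612 and 1554 CPM. Without scaling factors the fall of Rplp0 was not called, and the rise of Rpl36 was not called without day 6 EPS shCtrl replicate 2 (edgeR adjusted p = 0.0535). Markers differed between these groups too. Over 9 trophoblast genes the sum was 3337 to 3341 CPM in EPS shCtrl, 6403 to 6484 CPM in the libraries labelled shYy1, 5622 to 5672 CPM in ES oeCtrl and 3377 to 3525 CPM in ES oeYy1, and over 12 primitive endoderm genes it was 1993 to 2009, 3081 to 3093, 2859 to 2927 and 2387 to 2401 CPM in the same order. None of these markers was at 0 in a day 6 group. Their part in the ribosomal protein levels was not tested.

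With Yy1 overexpression on day 6 genes were called in both directions. In ES oeYy1 against ES oeCtrl 14 of 80 were higher and 30 lower, against 20.3% and 21.6% over all genes tested, with a median of -0.10. The share higher was thus not above that of all genes. Without scaling factors 17 were higher and 19 lower, and the all-gene share in that fit was not taken. Rpl23a rose most, from 281 and 261 CPM to 560.1 and 631 CPM (log2 1.10 ± 0.05, edgeR adjusted p = 6.7e-24), followed by Rpl35, Rps28, Rpl28 and Rpl19 at 0.52, 0.42, 0.40 and 0.40. Rpl28 had 547 and 485 CPM against 697 and 708 CPM and so was higher on day 6, but lower in undifferentiated cells. Among falls Rps21 went from 292 and 248 CPM to 211 and 173 CPM (log2 -0.54), Rpl10 from 729 and 696 CPM to 602 and 494 CPM (-0.42) and Rplp0 from 1612 and 1554 CPM to 1279.6 and 1159.8 CPM (-0.42). Rps27l, a p53-responsive paralog of Rps27, fell by 0.41 and Rpl27 by 0.38 on the log2 scale.

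The effect of each construct was compared between stages by an interaction term, the log2 effect on day 6 minus that in undifferentiated cells. For the hairpin label 1 gene of 82 was higher and 25 were lower, against 21.2% and 20.2% over all genes tested, with a median of -0.15. All 4 X-linked genes were among the 25: Rpl36a at -0.86 ± 0.13 (edgeR adjusted p = 2.5e-05), Rpl39 at -0.77, Rps4x at -0.51 and Rpl10 at -0.37. Rpl22 (-0.76), Rpl17 (-0.59) and Rpl26 (-0.53) followed, and Rps27 (0.53) was the gene higher. Since Yy1 was not lower on day 6, this contrasts a depleted with a not visibly depleted state. Without EPS shCtrl replicate 2, 47 genes were called, and without scaling factors 48, all lower. The all-gene share was not taken in either fit, and leaving out scaling moved the all-gene median by -0.18. The call of Rpl10 was lost in 4 of 8 cases of a library left out: EPS shYy1 replicate 1, either day 6 library labelled shYy1 and day 6 EPS shCtrl replicate 2 (edgeR adjusted p up to 0.0856). For overexpression 7 genes were higher and 22 lower, against 18.3% and 19.3%, with Rpl23a at 1.41 ± 0.14 (edgeR adjusted p = 1.1e-07), Rpl28 at 0.94, Rps27l at -0.78 and Rpl10 at -0.70. Without scaling factors 11 were higher and 20 lower. It called 19 genes without ES oeYy1 replicate 2 and 18 without day 6 ES oeYy1 replicate 2. The all-gene shares in these fits were not taken.

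Whether ribosomal protein mRNAs rose or fell over the 6 days depended on the undifferentiated cells chosen. Against the same construct, EPS shCtrl had 57 of 82 genes higher and 14 lower (38.0% and 36.0% of all genes tested), with a median log2 change of 0.57. For EPS shYy1 the counts were 45 and 24 (38.4% and 37.0%), for ES oeCtrl 50 and 20 (37.4% and 35.6%) and for ES oeYy1 46 and 25 (36.5% and 36.2%), with medians of 0.38, 0.51 and 0.38. Against cells with no construct in their labels the direction turned: day 6 EPS shCtrl had 4 higher and 64 lower than EPS (35.3% and 35.5%, median -0.69), and day 6 ES oeCtrl had 2 higher and 70 lower than ES (33.3% and 34.7%, median -0.85). The day 6 libraries were submitted apart from the undifferentiated ones, so stage and submission cannot be told apart.

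Rpl36a turned, at 526 and 559 CPM in day 6 EPS shCtrl, 199 and 216 CPM in undifferentiated EPS shCtrl and 631, 672 and 505 CPM in EPS, with log2 changes of 1.27 and -0.47, both called. Rps29 kept its direction but not its size, with 686 and 698 CPM in day 6 EPS shCtrl, 37.3 and 42.8 CPM in undifferentiated EPS shCtrl and 421, 271 and 287 CPM in EPS. That gave a log2 change of 3.99 against the construct cells and 0.77 against EPS. Rps28 gave 3.33 and 0.87. Other genes fell against either reference. Rps6, the small subunit protein phosphorylated by S6 kinase, had 795 and 801 CPM in day 6 EPS shCtrl, 1023 and 1085 CPM in the undifferentiated construct cells and 2022, 2077 and 1659.5 CPM in EPS (log2 -0.52 and -1.58). Rpsa (-0.65 and -1.30), Rps2 (-0.72 and -1.45) and Rplp0 (-0.71 and -1.21) also fell against both. Rpl23a and Rpl35 rose against both, with log2 changes of 4.07 and 2.14 for Rpl23a and 3.15 and 1.11 for Rpl35.

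Among the paralogs Rpl3l, Rpl10l, Rpl39l, Rps27l and Rps4l, Rpl10l ranged most widely on a relative scale. Rps27l and Rps4l were not low, at means of 242 and 486 CPM in ES, and Rpl6l was not in this set of 5. Rpl10l had 26.9, 28.6 and 19.1 CPM in ES, and its level in each other undifferentiated group is given above. On day 6 it was at 0 in both EPS shCtrl libraries and at most 1.25 CPM in the other 6. Taking 3 counts per library as the floor, it was at least 209-fold lower on day 6 in EPS shCtrl than in undifferentiated EPS shCtrl, at least 33.5-fold lower than in EPS and at least 6.37-fold lower than in day 6 ES oeCtrl. Floors cover counting error only. Rpl39l had 4.86, 4.18 and 2.27 CPM in ES, 0.700, 0.481 and 0.235 CPM in EPS and at most 0.471 CPM on day 6. Day 6 EPS shCtrl was at least 13.1-fold lower than undifferentiated EPS shCtrl (mean 2.02 CPM) and at least 3.06-fold lower than EPS. Day 6 ES oeYy1 was at least 20.9-fold lower than undifferentiated ES oeYy1 (mean 4.37 CPM). Rpl3l stayed at or under 3.59 CPM throughout. Rps4l, whose sequence resembles Rps4x, had 682 and 697 CPM in ES oeCtrl, 448 and 478 CPM in EPS shCtrl and 278 to 381 CPM in EPS, and fell on day 6 in each construct, for example by 1.61 on the log2 scale in EPS shCtrl. Of their broadly used partners Rpl3, Rpl10, Rpl39, Rps27 and Rps4x none was called in EPS against ES, where 4 of the 5 paralogs were lower, and the difference between the sets was not tested. With the hairpin in undifferentiated cells Rpl10l and Rpl10 rose, by 1.03 and 0.58 on the log2 scale. Reads that fit several places were set aside in the deposited counts, so levels of Rps4l, Rpl10l and their partners are uncertain.

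**Figure D5:**
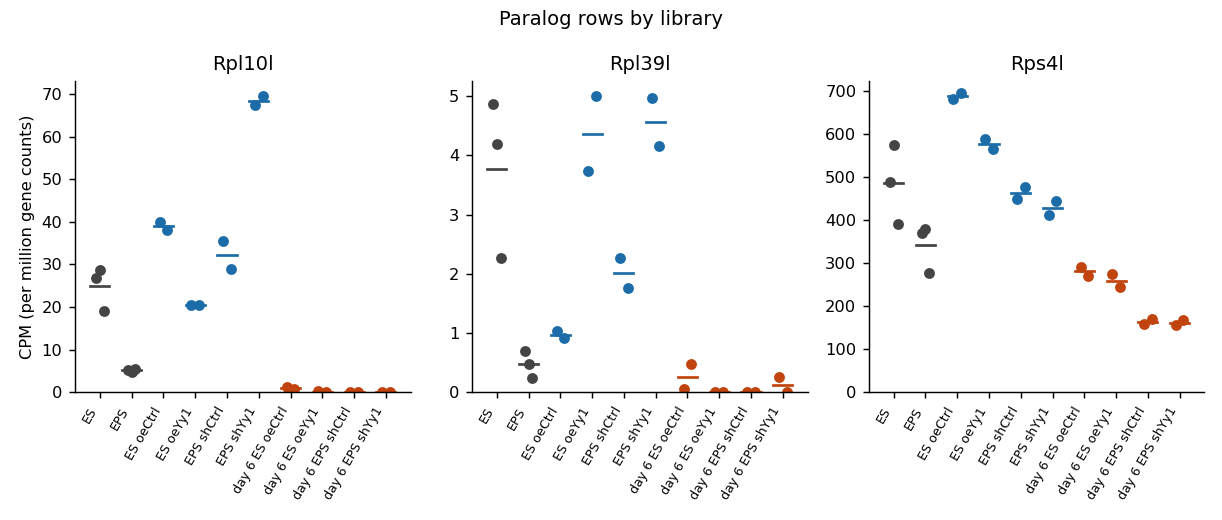
CPM of Rpl10l, Rpl39l and Rps4l in 10 groups, 1 point per library with the group mean as a horizontal line, each panel on its own scale from 0. Rpl10l is highest in EPS shYy1 (67.3 and 69.5 CPM) and at most 1.25 CPM on day 6.

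By role, the P-stalk genes, whose products recruit elongation factors, did not move as 1 unit. Rplp1 and Rplp2 followed the construct contrast in EPS cells by -2.13 and -1.95 and Rplp0 by -0.49, all called. On day 6 in the libraries labelled shYy1 Rplp2 was lower (-0.36; not called without day 6 shYy1 replicate 1 or EPS shCtrl replicate 2, edgeR adjusted p up to 0.0693), while Rplp0 gave 0.03 and Rplp1 0.08 and were not called. Rpl5 and Rpl11, which with 5S rRNA form the particle that holds back MDM2, gave -0.41 and -0.51 in those libraries, 0.35 and 0.49 in day 6 EPS shCtrl against ES oeCtrl, and -0.40 each in the hairpin interaction, all called. In ES oeCtrl against ES they gave -0.78 and -1.32, both called, and in the overexpression interaction 0.14 (not called) and -0.48 (called). Rps19, which is mutated in Diamond-Blackfan anaemia, gave -0.28 on day 6 in the libraries labelled shYy1 and was not called. Rpl38, known for its part in translating Hox mRNAs, had 353 and 372 CPM there in controls and 235 and 221 CPM in the libraries labelled shYy1 (log2 -0.53, called).

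A few rows overlap other genes. Rpl24, a core protein of the large subunit, read 0.206 to 1.95 CPM in all libraries and overlaps Zbtb11. Rpl23a overlaps Tlcd1 and Rpl35 overlaps Wdr38, and both were among the 5 largest rises between stages in each construct. In all 22 of the genes overlap another gene other than a small nucleolar RNA, and 29 contain small nucleolar RNA genes. Reads that fell on overlapping genes were kept apart in the deposited tables, so these levels are uncertain, and the part of the overlap in them was not tested. Rows for processed pseudogenes of ribosomal proteins, 270 in number, summed to 242 to 697 CPM per library.

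Presence of CCATNTT in the promoter window gave these medians: with the hairpin in undifferentiated cells -0.30 over 19 genes with a match and -0.18 over 41 without, and on day 6 in the libraries labelled shYy1 -0.35 over 19 and -0.33 over the 39 tested without. No test was made.

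Genes that serve the ribosome in other ways were taken as lists. With the hairpin in undifferentiated EPS cells 2 of 82 ribosomal protein genes were lower, and over all genes tested 13.3% were lower and 15.1% higher. Of 40 ribosome biogenesis factors 31 were lower there and 1 higher (median -0.56). Among them Ncl, the nucleolar protein nucleolin, went from 3970 to 2524 CPM (log2 -0.72, edgeR adjusted p = 2.9e-04) and Polr1b, a subunit of RNA polymerase I, from 168.6 to 97.2 CPM (log2 -0.87). On day 6 in the libraries labelled shYy1, 15 of the 40 factors were higher and 13 lower (median 0.00), against 30.9% and 30.4% over all genes tested. In that comparison 63 ribosomal protein genes were lower. In day 6 EPS shCtrl against ES oeCtrl 2 factors were higher and 28 lower, against 31.6% and 32.4%, opposite to the 64 ribosomal protein genes that were higher. The interaction for the hairpin called 26 factors higher and 2 lower, against 21.2% and 20.2%. Among 14 regulators of ribosomal protein supply 0 were higher and 3 lower with the hairpin in undifferentiated EPS cells. Myc fell there from 65.4 to 8.70 CPM (log2 -2.97, edgeR adjusted p = 6.3e-08). On day 6, 7 regulators were higher and 4 lower, and Mycn fell from 130.4 to 62.5 CPM (log2 -0.93). The regulator counts are read beside the all-gene shares of the same comparisons.

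The remaining lists are read beside the all-gene shares given above for each comparison. Translation factors with TOP mRNAs, 17 in number, had 11 lower and 0 higher in EPS shCtrl against EPS (median -0.41) and 10 lower and 0 higher on day 6 in the libraries labelled shYy1 (median -0.18). Of 6 tested host genes of small nucleolar RNAs, which carry TOP tracts as well, all 6 were higher in day 6 EPS shCtrl against ES oeCtrl. All 6 were lower on day 6 in the libraries labelled shYy1 (median -0.73). Gas5, a host gene, went from 200.2 to 106.1 CPM (log2 -0.78, edgeR adjusted p = 6.7e-21). The 77 tested mitochondrial ribosomal protein genes had 40 lower and 7 higher in EPS shCtrl against EPS (median -0.32), 24 lower and 0 higher with the hairpin in undifferentiated cells, and 41 lower and 5 higher on day 6 in the libraries labelled shYy1 (median -0.23). The 7 tested ribosomal protein rows outside the naming rule had 5 lower and 1 higher in EPS shCtrl against EPS (median -0.88) and 4 lower and 0 higher on day 6 in the libraries labelled shYy1.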

How the data were processed

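The counts analysed are whole reads per gene symbol that the authors deposited, 1 table for each of 22 RNA-seq libraries made from TRIzol-extracted RNA per the labels' protocols. The submitters' processing notes name CASAVA, Bowtie2 2.3.2 and the builds mm10 and GRCm38.p6 without saying which step used them, and the counting tool and its strand setting are not given in the sources used here. Lines that name no gene were left out of library sizes: by the summary lines at the end of each deposited table, reads with no unique place made up 5.45 to 6.66% and ambiguous reads 3.70 to 5.32% of all lines. The other 41 of 63 samples hold other assays and were not used. No pair of replicates agreed within sampling noise.

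Differences were tested with edgeR 4.0.16 in R 4.3.3 (filterByExpr, TMM scaling, robust quasi-likelihood F-test) with Benjamini-Hochberg adjustment over all genes tested and a threshold of 0.05. The 6 undifferentiated groups entered 1 model (14 libraries, 16440 genes), the 4 day 6 groups another (8 libraries, 15927 genes), and the 8 construct groups were fitted together for stage and interactions (17207 genes). A fit of all 22 libraries (17694 genes) for construct against no construct, and for stage against cells without a construct label, was added after seeing the data. Printed CPM carry no TMM factor, so their ratios can differ from fitted folds. Scripts were tested on simulated data. Same-numbered ES and EPS libraries, whose numbers come from the titles, deviated together (r = 0.127, 0.174 and 0.375), and those of the other groups did not (-0.08 to 0.06).

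Genes named in each comparison were up to 5 rises and 5 falls of largest size among called genes averaging at least 5 CPM with groups that do not overlap, plus the X-linked genes, P-stalk, Rpl5, Rpl11, Rpsa, Rps6, Rps19, Rpl22, Rpl38 and the paralogs with their partners. Other genes named with values were chosen after their values were seen. The members and all gene lists were chosen with earlier results of these data known. Alternatives were DESeq2 1.42.0, other or no scaling, scaling without the 82 genes, no count filter, only the groups compared, a replicate block and each library left out. All-gene shares of calls were not taken in these alternative fits. A few genes are not reported here by name.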

Additional observations from a re-analysis of the deposited data

Results flagged for a closer look

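The effect of the Yy1 constructs differed between the stages by an interaction test for 26 of the 82 genes with the hairpin (1 higher and 25 lower, against 21.2% and 20.2% of all genes tested) and 29 with overexpression (7 and 22, against 18.3% and 19.3%). Summed over both directions, neither share of the 82 genes is above that of all genes. Among the largest for the hairpin were Rpl36a (-0.86), Rpl39 (-0.77), Rpl22 (-0.76), Rpl17 (-0.59), Rpl26 (-0.53) and Rps27 (0.53), as log2 effect on day 6 minus that in undifferentiated cells. Day 6 libraries labelled shYy1 did not have less Yy1 than their controls. For overexpression the genes were Rpl23a (1.41), Rpl28 (0.94), Rpl17 (0.35), Rps28 (0.33), Rpl19 (0.32), Rpl10l (-1.60), Rps27l (-0.78), Rpl10 (-0.70), Rpl27 (-0.66) and Rpl38 (-0.64). Rpl17, Rps28, Rpl19 and Rpl10l lost their call in 3 to 5 of 8 fits with 1 library left out. Groups of 2 or 3 libraries are too small for a test of the gap between 1 library and the rest.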

How the results depend on the processing

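Values of genes chosen for naming and called in the main fit were followed under other settings. There 1511 kept direction and call, 23 lost the call and 9 turned. With 1 library left out, or replicate 3 of both ES and EPS, the numbers were 912, 120 and 0. Counts of called genes and medians are not among these values and are given here. Genes called in EPS against ES, 5 in the main fit, were 10 with no count filter, 3 with only the groups compared, 23 without replicate 3 of both states and 4 to 23 with 1 library left out, where the median ran from -0.039 to 0.27. EPS shCtrl against ES oeCtrl gave 4 to 11 with 1 library left out, EPS shYy1 against EPS shCtrl 18 with no filter and 3 to 4 with 1 left out, and ES oeYy1 against ES oeCtrl 7 with no filter, 38 with only the groups compared and 2 to 3 with 1 left out. The hairpin interaction called 48 without scaling and 20 to 47 with 1 library left out, and the overexpression interaction 18 to 29. With the replicate number as a block, EPS against ES gave 25, EPS shCtrl against ES oeCtrl 45, EPS shYy1 against EPS shCtrl 33 and ES oeYy1 against ES oeCtrl 19; only in the first do the numbers pair libraries. Against cells without a construct label the day 6 change turned for the median (-0.69 for EPS shCtrl, -0.85 for ES oeCtrl), for Rpl36a (-0.47), Rps4x (-0.88) and Rps27l (-0.38) in EPS shCtrl, and for Rps21 (-0.53), Rpl10 (-1.0), Rpl36a (-0.80), Rpl39 (-0.41), Rps4x (-0.91) and Rps27l (-0.32) in ES oeCtrl. The cause was not tested. Leaving out scaling moved the all-gene median by -0.13 in day 6 shYy1 against shCtrl, 0.15 in day 6 EPS shCtrl against ES oeCtrl, 0.12 between stages in EPS shCtrl, 0.16 in EPS shCtrl against EPS and -0.18 in the hairpin interaction. With 3 counts as the floor, levels under 0.144 to 0.219 CPM could not be told from 0.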
